A study of Mus musculus with 36 samples.

Results

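A set of 10 genes that mark astrocytes in the adult brain or carry out their transport work were followed through mouse hippocampus RNA-seq: Slc1a2, Slc1a3, Aqp4, Slc4a4, Atp1b2, Mlc1, Gja1, Aldoc, Acsbg1 and S100b. The members were taken by gene symbol, and all 10 were present among the 24421 symbols of the deposited tables. No measured value entered the choice, although earlier results of these data were known when it was made. The study measured polyA RNA from 36 hippocampus samples, and each of the 6 groups has 3 female and 3 male samples. The aging groups were C57BL/6 mice of 8 months (young) and of 18 months (old), both labelled as controls, and of 18 months given a nanoligomer (treated old). The transgenic groups, all 4 months old, were APP/PS1 mice labelled as controls, nanoligomer-treated APP/PS1 mice and "non-carrier" littermates labelled as controls. What controls received is not stated. The series title names NF-kB and NLRP3 as what was lowered in the aging and amyloid mice. APP/PS1 mice carry human amyloid precursor protein and presenilin transgenes. The promoter that drives the transgenes, the composition, dose, route and duration of the nanoligomer and the background strain of the APP/PS1 line are not stated in the labels. Nothing in the labels states that samples of a group came from separate animals, so p-values measure the spread between these samples.

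Astrocytes clear glutamate from the synaptic cleft through the sodium-coupled transporters GLT-1 (Slc1a2) and GLAST (Slc1a3), which are driven by the gradient that the sodium pump keeps up. Their endfeet on blood vessels hold the water channel aquaporin-4 (Aqp4), and connexin 43 (Gja1) joins neighbouring astrocytes into a coupled network. Loss of perivascular aquaporin-4 and of GLT-1 has been studied as a part of aging and of amyloid disease. In bulk tissue, fewer astrocytes and less of a transcript per astrocyte cannot be told apart.

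Every member is a protein-coding gene in GENCODE M21 on GRCm38, the assembly that mm10 names. Slc1a2 spans chr2:102658659-102790784 on the plus strand, and its paralog Slc1a3 spans chr15:8634124-8710764 on the minus strand. Slc4a4 spans chr5:88886818-89239653 (plus) and Atp1b2 spans chr11:69599736-69605942 (minus). Mlc1 spans chr15:88955884-88979007 (minus) and Gja1 spans chr10:56377330-56402513 (plus). Aldoc spans chr11:78322968-78327781 (plus), Acsbg1 chr9:54604877-54661870 (minus) and S100b chr10:76253853-76261159 (plus). The deposited values are per gene and do not separate isoforms.

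Promoter windows are shown for the pair whose levels varied most closely together across libraries, S100b and Acsbg1 (r = 0.81), and for the paralogs that did not vary together, Slc1a2 and Slc1a3 (r = -0.09). Each holds the 250 bases before a RefSeq start site on GRCm38.p6, 5′ to 3′ along the gene. Of the 10 members 8 matched the RefSeq table by symbol, with 10 windows; Aqp4 and Atp1b2 did not. Capitals mark matches, on either strand, to 5 motifs. Searched were the nuclear factor I half-site, spelled TTGGCA, and the core that SOX factors bind, spelled ACAAT. The TATA box was searched as TATAAA and the STAT site as TTCNNNGAA, and the fifth was the kappaB consensus. No matches overlap in these windows.
S100b, chr10:76253586-76253835, plus strand: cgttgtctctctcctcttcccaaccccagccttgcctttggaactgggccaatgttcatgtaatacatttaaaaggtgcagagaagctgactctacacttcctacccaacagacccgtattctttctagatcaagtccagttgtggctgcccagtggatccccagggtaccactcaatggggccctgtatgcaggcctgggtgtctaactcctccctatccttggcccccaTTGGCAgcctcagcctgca
Acsbg1, chr9:54661886-54662135, minus strand: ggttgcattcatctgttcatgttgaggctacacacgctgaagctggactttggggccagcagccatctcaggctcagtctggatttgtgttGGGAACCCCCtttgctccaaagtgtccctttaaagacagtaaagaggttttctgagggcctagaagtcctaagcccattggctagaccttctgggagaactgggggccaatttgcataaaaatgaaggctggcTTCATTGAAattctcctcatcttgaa
Slc1a2, chr2:102706188-102706437, plus strand: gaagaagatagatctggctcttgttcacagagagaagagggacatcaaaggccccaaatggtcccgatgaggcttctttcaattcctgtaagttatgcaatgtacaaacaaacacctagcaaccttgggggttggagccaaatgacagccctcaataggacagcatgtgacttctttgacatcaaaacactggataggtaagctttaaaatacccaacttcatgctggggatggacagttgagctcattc
Slc1a3, chr15:8710808-8711057, minus strand: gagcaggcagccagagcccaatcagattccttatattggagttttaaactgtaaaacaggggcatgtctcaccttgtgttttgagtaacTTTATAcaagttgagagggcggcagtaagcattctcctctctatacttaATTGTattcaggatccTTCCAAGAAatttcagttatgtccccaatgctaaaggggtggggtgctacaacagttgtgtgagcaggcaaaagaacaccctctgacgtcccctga
The S100b window held 1 nuclear factor I half-site and the Acsbg1 window held 1 kappaB match and 1 STAT match, so the closest pair shared none of the searched motifs. The Slc1a3 window held 1 match each to the SOX core, the TATA box and the STAT site, and the Slc1a2 window held no match. Over all 32851 windows of the same length in the table, 12.3% held the half-site, 27.7% the SOX core, 12.4% the TATA box, 7.02% the STAT site and 5.0% the kappaB consensus. GC content was 53.6% in the S100b window, 48.4% in the Acsbg1 window and 44.8% in both transporter windows, beside a median of 52.4% over all windows. The RefSeq start used for Slc1a2 lies inside the GENCODE span of the gene. A match is a description of letters and not a binding site.

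Of the 36 libraries, 35 held between 27.6 and 46.3 M gene-assigned reads, and treated APP/PS1 female 3 held 0.913 M. That library was left out of every comparison, so treated APP/PS1 mice have n = 5. Its neuron markers summed to 717.2 CPM (reads scaled to the same total in every library), below the 9940 of the lowest other library, and Acsbg1 had 0 reads in it while Gja1 had 252.9 CPM. Several other libraries stood apart in markers of neighbouring regions or cell types. Summed choroid plexus markers (14 genes) reached 5955 CPM in young male 1, 3047 in young male 3 and 5590 in treated APP/PS1 female 1, against a median of 321.5 over the 35 libraries. They also reached 2446 CPM in young female 2, 1417 in young female 1 and 1544 in treated APP/PS1 female 2. Their median was 1932 CPM in young and 318.3 in old mice. Summed striatum markers (12 genes) reached 1843 CPM in young male 2, 3169 in APP/PS1 female 1, 3232 in treated old female 3 and 1581 in treated APP/PS1 male 2, against a median of 272.5. Thalamus and habenula markers reached 1867 CPM in young male 1 (median 513.2). Microglia markers reached 1245 CPM in APP/PS1 female 3 (median 522.9), and reactive astrocyte genes reached 3087 CPM there (median 622.8). Dentate gyrus markers, which define the labelled tissue, were present in all 35 at 384.5 to 954.4 CPM. Of the titled targets, Nfkb1 had 739.4 ± 87.8 normalized counts (SD, n = 6) in treated old and 782.6 ± 48.5 (SD, n = 6) in old mice, and Nlrp3 had 59.7 ± 21.7 and 54.6 ± 21.3. In APP/PS1 mice Nfkb1 had 555.4 ± 53.4 (SD, n = 5) with and 588.4 ± 90.9 (SD, n = 6) without treatment, and Nlrp3 had 42.0 ± 16.1 and 42.7 ± 17.1. The smallest adjusted limma p of these 4 treatment tests was 0.816.

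Per kilobase of exon, the members spanned a wide range of abundance. Slc1a2, the main glutamate transporter of the forebrain, averaged 300.5 ± 37.4 CPM per kb (SD, n = 35) and ranked 72 of 21017 genes with a length and reads. Aldoc, the brain aldolase of the glycolytic pathway, averaged 277 ± 49.4 CPM per kb, and Atp1b2, a beta subunit of the sodium pump also known as AMOG, averaged 202 ± 28.4. Aldoc ranked 83 and Atp1b2 ranked 133. A lower band held Slc1a3 at 81.1 ± 7.86, the calcium-binding protein gene S100b at 69.4 ± 14, Mlc1, which encodes an endfoot membrane protein, at 51.8 ± 7.22 and the acyl-CoA synthetase gene Acsbg1 at 46.0 ± 6.79 CPM per kb. Aqp4 (22.1 ± 6.47), Gja1 (20.1 ± 3.14) and the sodium bicarbonate cotransporter gene Slc4a4 (17.9 ± 3.54) were lowest. The intervals of mean ± SD did not meet between Atp1b2 and Slc1a3 or between Acsbg1 and Aqp4, and those of all other neighbours in this order overlapped. Within a library, the level of Slc1a2 per kb exceeded that of Slc1a3 by 2.20 to 4.96 times.

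**Figure D1:**
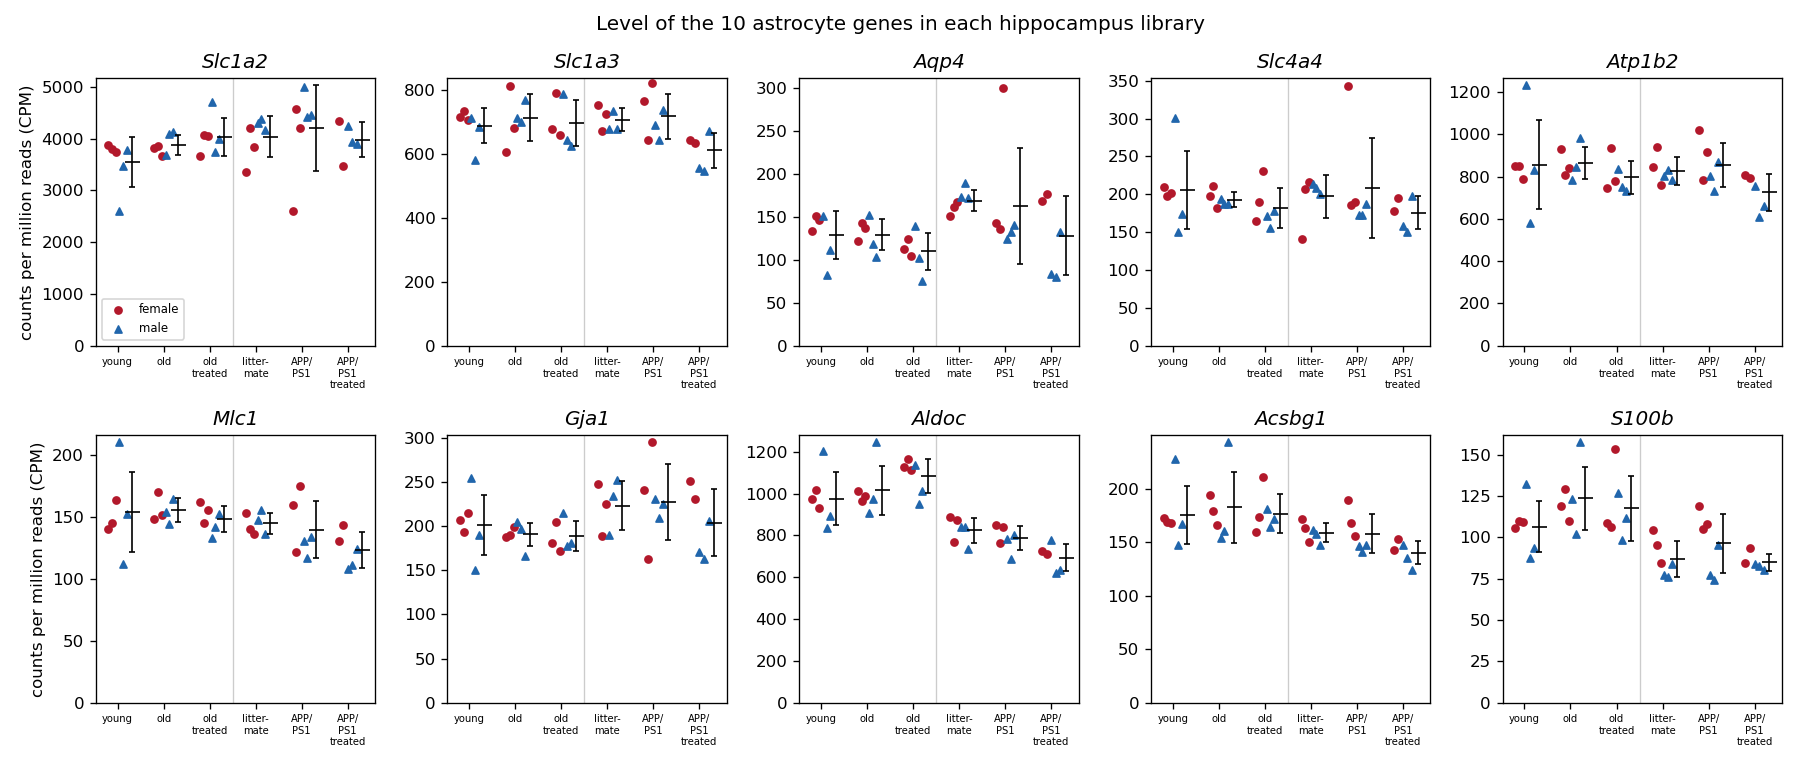
CPM of each gene (linear axis from 0) in each of 35 libraries by group, with females as circles, males as triangles, and the group mean with its SD as the black bar. The Aqp4 point of APP/PS1 female 3 at 299.7 CPM and the Slc4a4 point of APP/PS1 female 1 at 342.9 CPM stand above all other libraries of those genes.

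Levels of some genes differed between the aging and the transgenic arm, which were separate cohorts of other ages and genotypes and were not tested against each other. Aldoc averaged 976 ± 129 CPM in young, 1016 ± 118 in old and 1084 ± 83.5 in treated old mice, and 824 ± 60.7 in littermates, 788 ± 59.0 in control and 694 ± 64.9 in treated transgenic mice (SD, n = 6, or 5 in the last). S100b means were likewise higher in the aging groups, at 106 ± 15.5, 123 ± 19.2 and 117 ± 19.9 CPM. They were 86.8 ± 10.9, 96.4 ± 17.8 and 85.0 ± 5.14 in the 4-month groups. Within each arm the order of the groups differed from that of Aldoc. Aqp4 had 129 ± 27.6, 129 ± 17.9 and 109.5 ± 21.6 CPM in the aging groups, 169 ± 12.6 in littermates, 163 ± 67.4 in control APP/PS1 mice, where female 3 had 299.7, and 128 ± 45.7 in treated APP/PS1 mice. Among the transporters, Slc1a3 lay between 612 ± 55.8 CPM (treated APP/PS1) and 718 ± 71.2 CPM (APP/PS1), and Slc1a2 between 3547 ± 479 (young) and 4209 ± 832 (APP/PS1). Slc4a4 averaged 194 ± 38.3 CPM over the 35 libraries, Atp1b2 823 ± 116, Mlc1 145 ± 20.2, Gja1 206 ± 32.2 and Acsbg1 166 ± 24.4. After removal of group and sex means, Aqp4 varied most (SD 0.31 on the log2 scale, above that of 85.7% of 12052 expressed genes) and Slc1a3 least (SD 0.13, above that of 30.6%).

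Old mice showed no called change from young mice in any member. None of the 10 members passed adjusted p under 0.05 in limma, beside 6 of 16626 genes (0.0361% of those tested), and on the recovered reads edgeR (0.0361% of genes) and DESeq2 (0.74%) also called 0 members. At an unadjusted p under 0.05, limma passed 1 member and 1020 genes (6.13%). S100b, whose product astrocytes secrete and whose level is often read as a glial marker, had lowest, median and highest normalized counts of 4223, 4850 and 6379 in old and 3636, 4332 and 4970 in young mice. The groups overlapped, with old male 3 highest and young male 2 lowest. The S100b log2 fold change was 0.23 ± 0.104 (SE) (limma, adjusted p = 0.810).

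Neither glutamate transporter was called (limma, adjusted p = 0.884 for Slc1a2 and 0.925 for Slc1a3). Slc1a2 had 147300, 153476 and 168769 normalized counts (lowest, median, highest) in old and 98245, 151154 and 157737 in young mice. The lowest young value belonged to young male 1, the library with high choroid plexus and thalamus markers. Neuron markers in that library summed to 10710 CPM, beside a median of 16220 in young mice. The log2 fold change was 0.15 ± 0.124 (SE) for Slc1a2 and 0.07 ± 0.0804 (SE) for Slc1a3. For Slc1a2 it was 0.0461 without young male 1, 0.0355 with array weights and 0.0674 with covariates for the marker levels of choroid plexus, striatum and thalamus (marker covariates). Without young male 1 and young male 2 it was 0.0188. Among the water and ion genes it was 0.04 ± 0.125 (SE) for Aqp4, -0.05 ± 0.115 (SE) for Slc4a4 and 0.06 ± 0.131 (SE) for Atp1b2. The endfoot and coupling genes gave 0.05 ± 0.105 (SE) for Mlc1 and -0.05 ± 0.0940 (SE) for Gja1. The metabolic genes gave 0.07 ± 0.0945 (SE) for Aldoc and 0.07 ± 0.114 (SE) for Acsbg1. In all, 8 of 10 members had a positive estimate, with a median of 0.06, beside 48.6% of all genes tested and a median of 0.00. The 95% limits bounded the age difference of every member within -0.30 and 0.46 on the log2 scale. No member had groups that did not overlap, as 0.505% of all genes did. The sign of the Slc4a4 and Aqp4 estimates turned without young male 1 and young male 2, at 0.01 and -0.02.

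Nanoligomer treatment of old mice left every member uncalled. limma called 0 of the 10 members and 0 of 16517 genes (0% of those tested), with 0 members and 1192 genes (7.22%) at an unadjusted p under 0.05. edgeR called 0 genes (0%) and DESeq2 2 genes (0.0121%), with no member among them. Aqp4, the water channel, had 2891, 4057 and 5259 normalized counts (lowest, median, highest) in treated old and 3905, 4903 and 5665 in old mice. The groups overlapped, and the lowest value was that of treated old male 3. Its log2 fold change of -0.25 ± 0.130 (SE) was the largest in size among the members, with 95% limits of -0.54 to 0.03 (limma, adjusted p = 0.684). Atp1b2 had 30016 ± 2964 (SD, n = 6) against 32712 ± 3025 (SD, n = 6), a log2 fold change of -0.12 ± 0.0832 (SE). Slc4a4, which loads bicarbonate and so links astrocytes to pH control, had -0.10 ± 0.0739 (SE). The transporters had 0.05 ± 0.0839 (SE) for Slc1a2 and -0.04 ± 0.0879 (SE) for Slc1a3. Estimates for Mlc1, Gja1, Acsbg1 and S100b lay between -0.08 and -0.02, and Aldoc had 0.09 ± 0.0866 (SE). Of the members 8 of 10 were negative, with a median of -0.06 beside 0.00 over all genes. The share of all genes whose groups did not overlap was 0.254%, and no member was among them. This comparison shares the 6 old libraries with the age comparison.

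**Figure D2:**
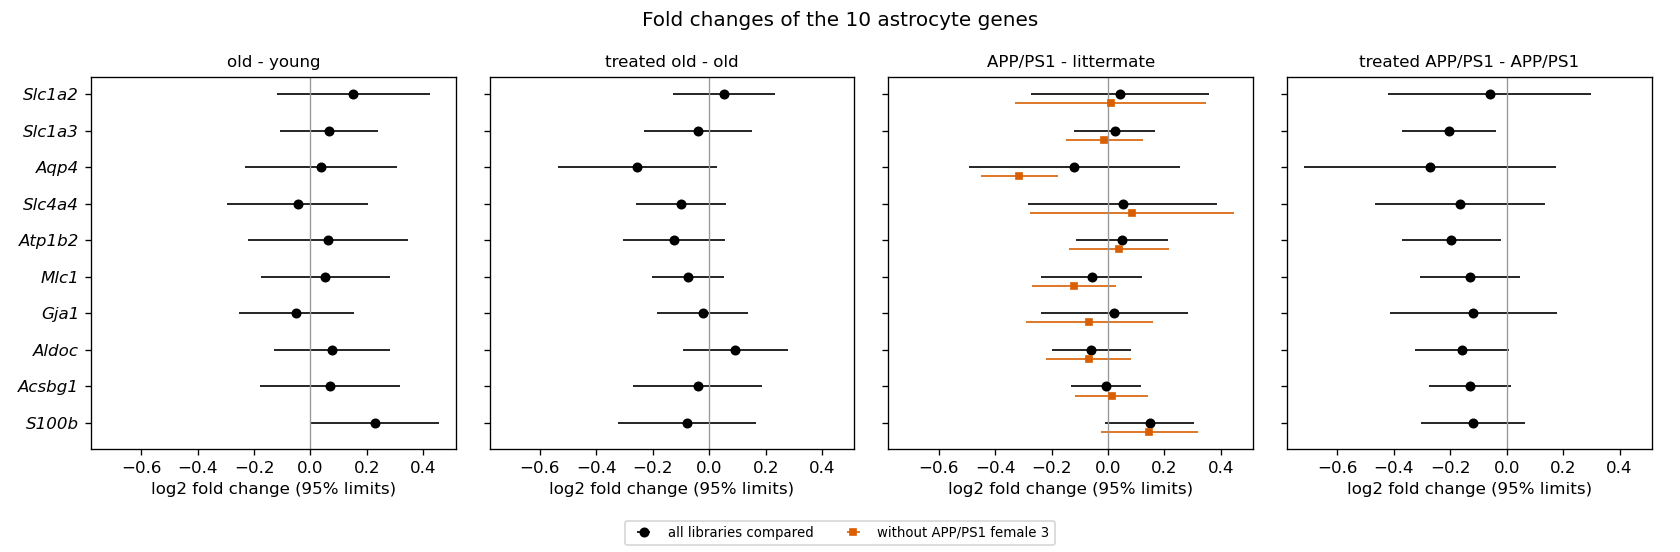
Log2 fold change of each member with its 95% limits in the 4 comparisons (limma), and for APP/PS1 against littermates also without APP/PS1 female 3 (squares). The limits span 0 for most members, and the Aqp4 square at -0.31 lies away from 0 with limits of -0.45 to -0.18.

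In 4-month APP/PS1 mice against their littermates, Aqp4 split the group. The normalized counts were 4910, 5075 and 10817 in APP/PS1 females 1 to 3 and 4653, 5019 and 5230 in males 1 to 3. Littermates had 5391, 5963 and 6107 in females and 6340, 6894 and 6283 in males. APP/PS1 female 3 was above every littermate, and the other 5 APP/PS1 libraries were all below the lowest littermate. That library also had the highest microglia and reactive astrocyte marker sums, and their part in its Aqp4 level was not tested. With all 12 libraries the log2 fold change was -0.12 ± 0.173 (SE), with an adjusted limma p of 0.867. With the marker covariates, in the same 12 libraries, the direction turned, to 0.29 ± 0.274 (SE; limma, adjusted p = 0.921). Without APP/PS1 female 3 it was -0.31 ± 0.0630 (SE), from 4977 ± 215 (SD, n = 5) against 6163 ± 494 (SD, n = 6), with an adjusted p of 0.0316 in limma, 0.0345 in edgeR and 0.000623 in DESeq2.

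The call without APP/PS1 female 3 was 1 of 10 members, beside 256 of 16433 genes (1.56%), of which 129 were higher and 127 lower. The groups of Aqp4 then did not overlap, as was so for 2.5% of genes. When a further library was left out beside APP/PS1 female 3, Aqp4 passed in 4 of 11 fits, with estimates of -0.34 to -0.28 and adjusted limma p-values of 0.00979 to 0.0916. The libraries whose further removal kept the call were APP/PS1 female 1, APP/PS1 female 2, littermate female 1 and littermate female 2. Within males, where that library plays no part in the means, the estimate was -0.39 ± 0.230 (SE; limma, adjusted p = 0.902), and within females 0.15 ± 0.230. The sexes were fitted with a common spread that includes that library. This way of leaving out a library was planned, and the attention to Aqp4 followed from its result. Without both APP/PS1 female 1 and female 3, a pair chosen for their marker levels after the data were seen, Aqp4 had -0.32 ± 0.0660 (SE) with an adjusted limma p of 0.00979, beside 906 of 16374 genes called (5.53%) and 5.63% of genes without overlap. A further member, Slc1a2, then had groups that did not overlap, at 0.20 ± 0.0791 (SE) and an adjusted limma p of 0.187.

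With all libraries, limma called none of the 10 members in APP/PS1 mice, beside 8 of 16475 genes (0.0486%), and edgeR (0.0486% of genes) and DESeq2 (1.54%) called 0 members as well. No member and 1677 genes (10.2%) had an unadjusted p under 0.05. S100b came nearest, with 2810, 3729 and 4091 normalized counts (lowest, median, highest) in APP/PS1 and 2770, 3077 and 3719 in littermates. The groups overlapped, and the log2 fold change was 0.15 ± 0.0732 (SE) with an adjusted limma p of 0.522. Slc1a2 had 89281, 166752 and 186830 in APP/PS1 and 119559, 154082 and 160237 in littermates. Here APP/PS1 female 1, the library with high striatum and low neuron markers, was lowest, APP/PS1 female 3 lay within the littermate range and the other 4 lay above every littermate. In the same library Slc4a4 was highest, so that its values were 6432, 6905 and 11787 in APP/PS1 and 5015, 7618 and 7882 in littermates, where littermate female 1 was lowest. The other 5 APP/PS1 libraries all lay below the other 5 littermates for Slc4a4. That split sets aside 1 library of each group by its Slc4a4 value, and the share of all genes that separate in this way was not computed. The estimates were 0.04 ± 0.145 (SE) for Slc1a2, 0.02 ± 0.0659 (SE) for Slc1a3 and 0.05 ± 0.155 (SE) for Slc4a4. Atp1b2 had 0.05 ± 0.0752 (SE), Mlc1 -0.06 ± 0.0825 (SE), Gja1 0.02 ± 0.120 (SE), Aldoc -0.06 ± 0.0650 (SE) and Acsbg1 -0.01 ± 0.0578 (SE). Of the members 6 of 10 were positive, with a median of 0.02 beside 0.00 over all genes. No member had groups that did not overlap with all libraries in, beside 0.85% of genes.

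In treated against control APP/PS1 mice all 10 members had a negative estimate, none of which passed the test over all genes. The direction turned for S100b (0.0460) and Slc4a4 (0.00819) with the marker covariates, and for Slc1a2 (0.00233) without APP/PS1 female 2. limma called 0 members and 0 of 16124 genes (0% of those tested), edgeR called 0 genes (0%) and DESeq2 7 (0.0434%), and no member was among them. At an unadjusted p under 0.05 limma passed 2 members and 477 genes (2.96%). Slc1a3, the glutamate transporter that radial glia and astrocytes share, had 15931, 17159 and 18914 normalized counts (lowest, median, highest; n = 5) in treated and 18210, 19712 and 22180 in control mice. The groups overlapped through treated APP/PS1 male 3, and the log2 fold change was -0.20 ± 0.0758 (SE) (limma, adjusted p = 0.997). Atp1b2 had 17720, 21421 and 22365 in treated and 20796, 23617 and 26396 in control mice, a log2 fold change of -0.20 ± 0.0800 (SE) (limma, adjusted p = 0.997). Its groups overlapped as well. The lowest treated value of both Slc1a3 and Atp1b2 was that of treated APP/PS1 male 2, a library with high striatum markers. The part of those markers in its values was not tested beyond the fits with marker covariates.

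Aqp4 had 2309, 3717 and 4749 normalized counts in treated and 3527, 3805 and 8071 in control APP/PS1 mice, with the highest control value again in female 3. Both treated females lay above control females 1 and 2, and treated males 1 and 2 lay below every control library. The estimate was -0.27 ± 0.204 (SE), with -0.14 without APP/PS1 female 3, -0.37 without APP/PS1 female 1 and -0.46 with array weights. Those of the endfoot and coupling genes were -0.13 ± 0.0810 (SE) for Mlc1 and -0.12 ± 0.134 (SE) for Gja1. The metabolic genes gave -0.16 ± 0.0755 (SE) for Aldoc and -0.13 ± 0.0661 (SE) for Acsbg1. S100b gave -0.12 ± 0.0841 (SE), Slc4a4 -0.17 ± 0.137 (SE) and Slc1a2 -0.06 ± 0.164 (SE). The median over members was -0.14, beside 0.00 over all genes, of which 49.4% were positive. No member had groups that did not overlap, beside 0.31% of genes. With treated APP/PS1 female 3 put back, the members' median was -0.65. This comparison shares the 6 control APP/PS1 libraries, female 3 among them, with the preceding one. All 14 choroid plexus markers had a positive estimate here, with a median of 2.34 and treated APP/PS1 female 1 highest. With the marker covariates the members' median was -0.17.

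Between the sexes, S100b was the member with the smallest p, at 4 months. Over APP/PS1 mice and littermates S100b had 2986 ± 303 normalized counts in males (SD, n = 6) and 3704 ± 360.2 in females (SD, n = 6), a male minus female log2 difference of -0.31 ± 0.0732 (SE). It was not called (limma, adjusted p = 0.507). limma called no member for sex in that arm, beside 0.0486% of genes, and none in the aging arm, beside 0.0662% of genes. In the aging arm the S100b difference was -0.00 ± 0.104 (SE), and whether the arms differ in it was not tested. The male minus female difference of the age, genotype and treatment effects was called by limma for 0% of genes in each of the 4 comparisons. At an unadjusted p under 0.05 there were 728 to 840 genes and 0 members. The treatment effect in APP/PS1 mice minus that in old mice was likewise called for 0 of 15990 genes (0%), and 695 passed unadjusted at 0.05. Of the members only Aldoc was among those, at -0.25 ± 0.114 (SE; limma, adjusted p = 0.918).

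Ratios of 2 genes within a library do not depend on its scaling. A set of 5 pairs was compared in the 4 comparisons, which made 20 exact 2-sided permutation tests within sex. Unless given per kb, ratios in this paragraph are of reads and are not divided by exon length. The smallest p the design allows is 0.005, so with 20 tests a single ratio could not have passed 0.05 after adjustment, and none did. Aldoc over Aldoa, the ubiquitous aldolase, ranged from 0.332 to 0.463 in treated and from 0.407 to 0.604 in control APP/PS1 mice. The log2 difference was -0.35 (exact permutation p = 0.02, adjusted 0.35). Atp1b2 over Atp1b1, the beta subunit that neurons favour, ranged from 0.476 to 0.607 in treated and from 0.550 to 0.852 in control APP/PS1 mice, a difference of -0.30 (exact permutation p = 0.035, adjusted 0.35). Both pairs set an astrocyte gene against a more widely expressed partner, and both ranges overlapped. Gja1 over Gjb6, the connexin 30 gene, ranged from 5.57 to 9.58 in APP/PS1 and from 5.11 to 7.36 in littermates, a difference of 0.33 (exact permutation p = 0.065, adjusted 0.433). Gjb6 itself had 1080 ± 133 normalized counts in APP/PS1 and 1331 ± 155 in littermates (SD, n = 6 each). Slc1a2 over Slc1a3 differed by 0.02 to 0.16 in the 4 comparisons (exact permutation p of 0.25 to 0.935), and Aqp4 over Mlc1 by -0.18 to -0.01 (exact permutation p of 0.355 to 0.925).

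Within groups the members varied together only in part. Deviations of log2(CPM + 1) from the mean of a library's group and sex gave 45 pairs, of which 36 had a positive Pearson r over 35 libraries, with a median of 0.44 (Spearman 0.27). Without young male 1 and young male 2, the libraries farthest from the median of the members' mean deviation, the median was 0.16 and 32 pairs were positive. For all values over 33 libraries the deviations were kept from the full set, so the mean of young males still included those 2 libraries. These correlations share libraries and depth, carry no test, and rest in part on that pair of libraries. In young male 1 all members but Slc1a2 were above the mean of young males, and in young male 2 all but Slc1a2 were below it. Choroid plexus and thalamus markers were high in the former and striatum markers in the latter.

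Some pairs held without those libraries. S100b and Acsbg1 had r = 0.81 over 35 and 0.75 over 33 libraries. Aldoc and Acsbg1, both metabolic enzymes, had 0.75 and 0.64, and Aldoc and Atp1b2 had 0.75 and 0.63. Another 3 genes, Aqp4, Gja1 and Slc1a3, had r = 0.74 for Aqp4 and Gja1, 0.68 for Aqp4 and Slc1a3 and 0.66 for Slc1a3 and Gja1. Without the 2 libraries these were 0.67, 0.64 and 0.62. Pairs of this trio with S100b, Acsbg1, Aldoc or Atp1b2 ranged from -0.11 for Aqp4 and Acsbg1 to 0.51 for Atp1b2 and Gja1. Over 35 libraries Slc1a2 ran against most members, with r = -0.38 to the mean of the other 9 members and -0.54 with Slc4a4. Over 33 libraries its r was -0.44 with Slc4a4, -0.36 with Mlc1 and -0.20 with Gja1. With the remaining members it then lay between -0.12 (S100b) and 0.19 (Aqp4), so the opposition rested in part on the 2 young males. The closest member to Slc1a2 over 35 libraries was Aqp4 at 0.02.

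**Figure D3:**
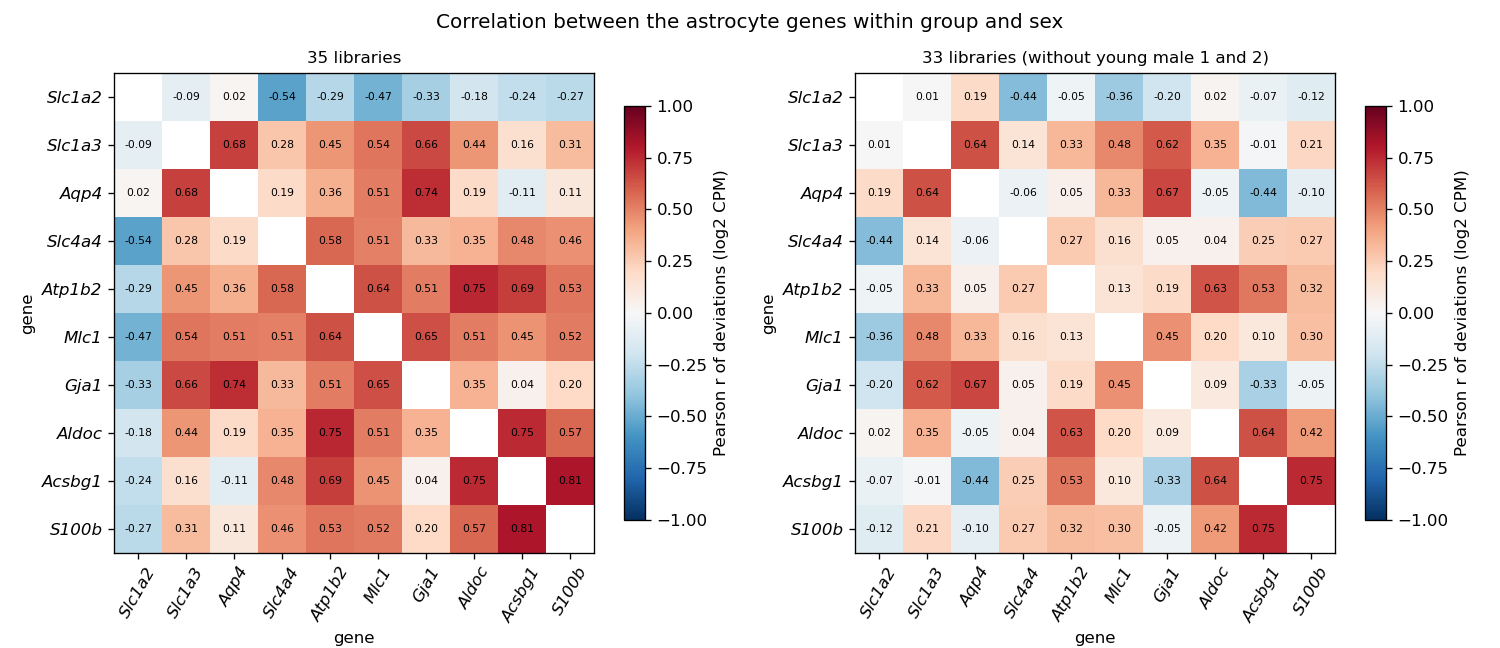
Pearson r of log2 CPM deviations for each pair of members (both axes list the genes), over 35 libraries on the left and 33 on the right. Slc1a2 is blue or pale against most members in both, and the median of 45 pairs is 0.44 on the left and 0.16 on the right.

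**Figure D4:**
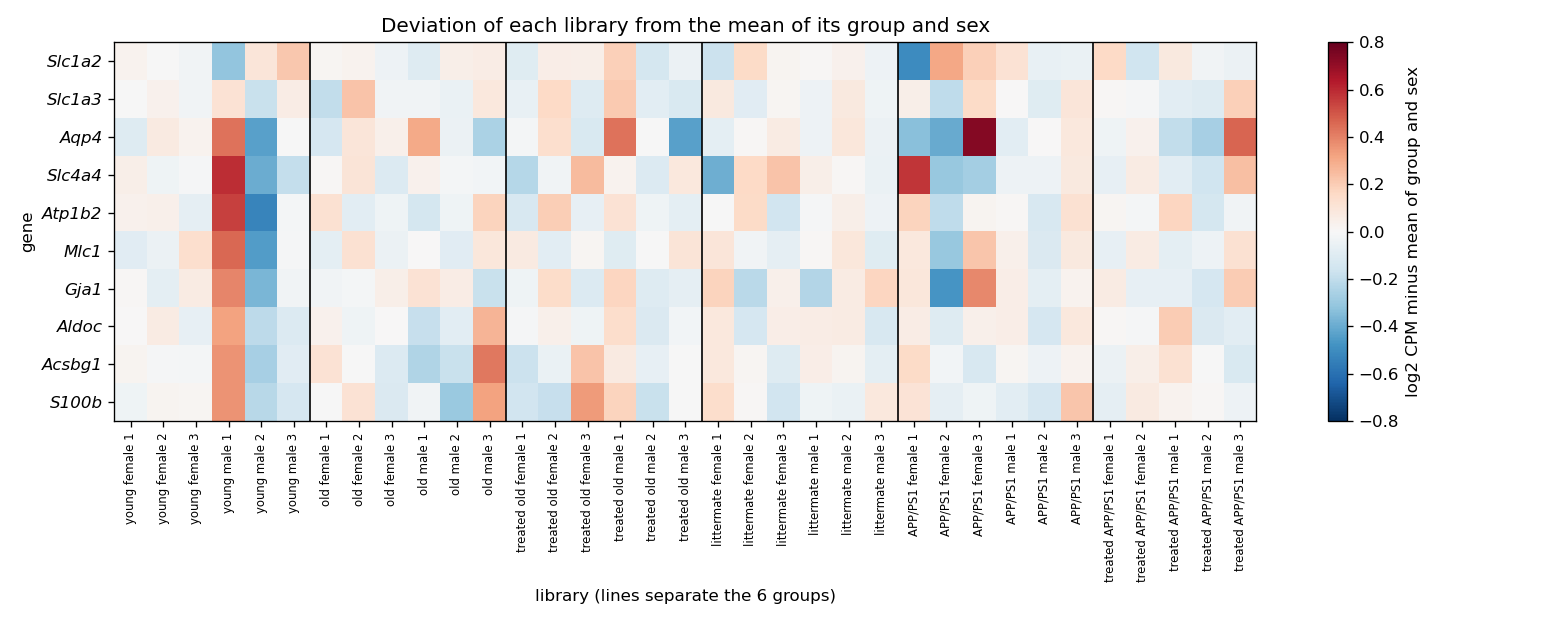
Deviation of log2 CPM from the mean of the library's group and sex for each member (vertical axis) and library (horizontal axis, lines between the 6 groups). Young male 1 and young male 2 stand out in opposite directions over nearly all members, and APP/PS1 female 3 stands out for Aqp4.

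Genes outside the set with the most similar pattern were found by the same r. Closest to the mean of the 10 members over 35 libraries were Plcd4 (0.85), Ccnd3 (0.84), Cyp2j9 (0.84), Tmbim6 (0.84), Ndrg2 (0.84), Gnai2 (0.84), Rnaset2b (0.83), Cd81 (0.83), Slc39a12 (0.82) and Tcn2 (0.81). Ndrg2 and Slc39a12 were on the list of further astrocyte genes. Over 33 libraries without young male 1 and young male 2 these 10 had r between 0.63 and 0.78. Single members had other neighbours. Among the genes closest to Slc1a2 were Synj2 (0.89) and Dusp7 (0.86), and those closest to Slc1a3 were Ppap2b (0.89), Pdpn (0.84) and Papss2 (0.82). Aqp4 was closest to Pa2g4 (0.87), Rcn3 (0.81) and Tnc (0.80), and Gja1 to Rftn2 (0.87), Tram1 (0.85) and Smoc1 (0.84). Slc4a4 was closest to Tnrc6a (0.90), Peg3os (0.90) and Peg3 (0.90). Atp1b2 was closest to Prr13 (0.84), Slc17a6 (0.83), a vesicular glutamate transporter of thalamic neurons, and Msi1 (0.83). Among the genes closest to Aldoc were Csdc2 (0.85) and Ndrg2 (0.83), and among those closest to S100b were As3mt (0.84) and Elovl5 (0.82). Acsbg1 was closest to Osbpl5 (0.88), Inpp5a (0.87) and Cxx1a (0.87), and Mlc1 to Bag3 (0.89), Cd81 (0.86) and Szrd1 (0.85). Over 33 libraries the r of Slc17a6 with Atp1b2 fell to 0.55. The other named neighbours of single members then had r between 0.68 (Msi1) and 0.88 (Synj2).

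Other genes of the same pathways, taken from lists, gave no call in any of the 4 comparisons by limma or edgeR. DESeq2 called Pla2g7 among the further identity genes in APP/PS1 mice (beside 1.54% of all genes), and 5 reactive genes with age. These lists were further astrocyte identity genes (23), endfoot and coupling (16), glutamate and GABA transport (20), sodium pump and bicarbonate (18), glycolysis, lactate and glycogen (24), lipid handling (20), transcription factors (20) and reactive astrocyte genes (30, of which 28 were tested in the transgenic arm). Of the further identity genes 15 of 23 had a positive estimate in old against young mice (median 0.07), 11 in treated old against old (-0.02), 4 in APP/PS1 against littermates (-0.06) and 4 in treated against control APP/PS1 mice (-0.09). In APP/PS1 mice their smallest p was that of Pla2g7, with 3400 ± 326 normalized counts against 3958 ± 291 in littermates (SD, n = 6 each) and an adjusted p of 0.196 in limma and 0.0120 in DESeq2. Of the endfoot and coupling genes Gjb6 had the smallest p there (limma, adjusted p = 0.325). Of the sodium pump and bicarbonate genes Fxyd1, a pump regulator, had the smallest p in treated old mice, at -0.29 ± 0.0920 (SE; limma, adjusted p = 0.678). Of the glutamate and GABA genes 5, 13, 11 and 10 of 20 were positive in the 4 comparisons in the same order, of the endfoot and coupling genes 7, 3, 5 and 5 of 16, and of the sodium pump and bicarbonate genes 10, 7, 5 and 13 of 18. Of the glycolysis genes 14, 9, 12 and 21 of 24 were positive, and in the last comparison their median was 0.09 beside -0.14 for the members. Lipid genes had 11, 7, 10 and 5 of 20 positive in the 4 comparisons, and transcription factors 10, 5, 9 and 7 of 20.

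Reactive astrocyte genes, which rise in gliosis, had positive estimates for 23 of 30 genes with age (median 0.42), and 10 of them had an unadjusted p under 0.05 in the positive direction. Over all genes tested, 3.37% had such a p in the positive direction. DESeq2 called 5 of the 30 higher with age, beside 0.74% of all genes. They were C4b, Lcn2, Psmb8, H2-D1 and Iigp1, named after their values were seen. In treated old mice 27 of 30 were negative (median -0.35). Of these, 5 had an unadjusted limma p under 0.05, beside 7.22% of all genes in either direction. The comparison shares the old libraries with the age comparison, so a high old value raises the age estimate and lowers this one. The sum was highest in old female 2 (1821 CPM) and old male 1 (1508 CPM) among old mice. Whether treatment reverses a rise with age was not tested. In APP/PS1 mice 15 of 28 were negative (-0.05), and in treated APP/PS1 mice 26 of 28 were negative (-0.31). The sum of the reactive genes ranged from 20263 to 72424 normalized counts in old and from 12115 to 31748 in young mice, so the groups overlapped. In CPM the sum had a median of 490 in treated and 475 in control APP/PS1 mice, where female 3 had 3087. The part of that library in the negative estimates of treated APP/PS1 mice was not tested. Oligodendrocyte markers were positive for 11 of 12 genes with age, and microglia markers for 12 of 12, with Trem2 called (0.76 ± 0.0949 (SE), limma, adjusted p = 0.0100). Gpr17 of the precursor list was called lower (-0.61 ± 0.0622 (SE), limma, adjusted p = 0.00159). Endothelial and pericyte markers were positive for 9 of 12 and neuron markers for 9 of 14 genes with age. Of the region lists, choroid plexus markers were negative for 14 of 14 and striatum markers for 12 of 12 genes with age, and dentate gyrus markers were positive for 11 of 12. In APP/PS1 mice choroid plexus markers were negative for 14 of 14, striatum positive for 12 of 12 and dentate gyrus negative for 11 of 12 genes. In treated old mice dentate gyrus markers were negative for 11 of 12 and neocortex markers positive for 11 of 12 genes, with the old libraries again shared with the age comparison. In treated APP/PS1 mice all 12 oligodendrocyte and all 10 precursor markers had a negative estimate, as the members did. The part of these shifts in the members' values was not tested beyond the fits with marker covariates.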

How the data were processed

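The authors deposited 4 tables of normalized counts (gene-level signal divided by a size factor, unit signal), one for each pair of groups. STAR, DESeq2 and mm10 are named in the submitters' processing notes, and the labels state no versions or settings. Low values in every deposited column were whole multiples of 1 step, so reads were recovered (100.0% of values whole within 0.001) and used for CPM and count tests. The 12 libraries present in 2 tables had identical recovered reads. One column name differs from its sample title by 1 letter and was matched by group, sex and number.

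Each comparison was fitted within its own table with limma 3.58.1 in R 4.3.3 on log2(value + 1). Genes averaging 10 or more normalized counts were kept, and sex was a covariate. Calls used Benjamini-Hochberg adjustment at 0.05. Fold changes are on that scale, which understates changes of low genes. edgeR 4.0.16 called 6, 0, 8 and 0 genes and DESeq2 1.42.0 called 123, 2, 253 and 7 on the recovered reads. Alternatives were array weights, marker covariates, a replicate block, no filter on low values, other scalings and each library left out in turn. The fits were tested on simulated data.

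The members and gene lists were chosen with earlier results of these data known. Named genes were all members, the called or smallest-p genes of each list, both titled targets, the genes of each ratio and the closest genes by r (mean CPM of at least 5). Of the smallest-p genes only some are printed, and some of the closest genes are not reported here. Promoter sequences are from RefSeq (GRCm38.p6) and exon lengths from GENCODE M21.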

Additional observations from a re-analysis of the deposited data

Results flagged for a closer look

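Of 60 groups of 5 or 6 libraries (10 genes in 6 groups), 8 held a library whose gap to its nearest neighbour, divided by the range of the group, passed Dixon's critical value for its number of libraries. For a single group of normally distributed values, chance alone passes this value in about 1 in 20. The 10 genes share libraries and each group mixes the sexes, so the count of 8 cannot be set against that rate.

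Aqp4 in APP/PS1 female 3 had a gap ratio of 0.895, with 299.7 CPM against 142.9 in the next library and 124.6 in the lowest. Slc4a4 in APP/PS1 female 1 had a gap ratio of 0.894, with 342.9 CPM against 190 in the next. Slc1a2 in the same library was lowest, at 2598 CPM against 4207 in the next, a gap ratio of 0.668. Slc4a4 in littermate female 1 was lowest at 140.5 CPM, a gap ratio of 0.785. In the young group Slc1a2 was lowest in young male 1 (2609 CPM, gap ratio 0.685) and Acsbg1 was highest there (228 CPM, gap ratio 0.69). Slc1a3 was lowest in young male 2 (581.1 CPM, gap ratio 0.674). Aldoc was highest in old male 3 (1247 CPM, gap ratio 0.695). The part of the marker levels reported for young males 1 and 2 and APP/PS1 females 1 and 3 in these values was not tested.

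In the shallow library left out of the comparisons, treated APP/PS1 female 3, S100b had 124.8 CPM, above the highest control APP/PS1 library at 119 CPM. That value rests on 114 reads. The same library held 0 reads of Acsbg1, 1 of Aldoc and 4 of Atp1b2, so its CPM values are not comparable with those of other libraries.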

How the results depend on the processing

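Alternatives that left out named libraries for their marker levels, the rank correlation and the removal of the farthest libraries were chosen after seeing the data.

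The number of genes called in old against young mice was 6 as reported, 14 with array weights, 123 with DESeq2, 1 with marker covariates and 4 to 11 when each library was left out in turn, the highest without old female 1. In treated old against old mice it was 2 with DESeq2. In APP/PS1 against littermates it was 8 as reported, 548 with array weights, 253 with DESeq2, 4 with marker covariates, 906 without APP/PS1 female 1 and female 3, and 6 to 256 when each was left out in turn. It was 21 without APP/PS1 female 1 and 256 without APP/PS1 female 3. Members called there numbered 1 without both and 0 to 1 when each was left out, Aqp4 being the 1. In treated against control APP/PS1 mice it was 1 without the filter on low values and 7 with DESeq2. The median pair correlation of 0.44 was 0.31 on TMM-scaled values, 0.19 in the transgenic arm alone, 0.16 without the farthest libraries and 0.27 as a rank correlation.

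Several estimates changed sign, none of which was called as reported or in the fit that turned it. Among them, Aqp4 in APP/PS1 mice was called, at -0.31, without APP/PS1 female 3. In old against young mice this was so when single libraries were left out for Aqp4 (-0.0628 to 0.10), Mlc1 (-0.0324 to 0.14), Atp1b2 (-0.0454 to 0.16), Gja1 (-0.12 to 0.0146), Acsbg1 (-0.0229 to 0.13) and Slc4a4 (-0.12 to 0.0680). Without young male 1 and young male 2, Aqp4 had -0.0157 and Slc4a4 0.0109, and with marker covariates Slc4a4 had 0.00900. In treated old mice the leave-out ranges were -0.0885 to 0.000910 for Slc1a3, -0.16 to 0.00326 for S100b, -0.0668 to 0.0147 for Gja1 (positive without treated old female 3) and -0.0965 to 0.0562 for Acsbg1. Array weights gave -0.00921 for Slc1a2 and 0.00780 for Acsbg1, and marker covariates 0.00557 for Gja1. In APP/PS1 mice the ranges were -0.0280 to 0.18 for Slc1a2, -0.0131 to 0.0548 for Slc1a3, -0.0657 to 0.12 for Gja1, -0.0361 to 0.0132 for Acsbg1 and -0.0887 to 0.0908 for Slc4a4. Array weights gave -0.000592 for Slc1a3, -0.0115 for Gja1 and -0.13 for Slc4a4. Marker covariates gave 0.29 for Aqp4, 0.0546 for Mlc1 and -0.14 for Slc4a4. Without APP/PS1 female 1 and female 3, Slc1a3 had -0.0277, Atp1b2 -0.00812, Gja1 -0.12 and Slc4a4 -0.11. In treated APP/PS1 mice Slc1a2 ranged over -0.19 to 0.00233, and marker covariates gave 0.0460 for S100b and 0.00819 for Slc4a4. The cause of these changes was not tested.

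A replicate block by the numbers in the labels gave 1, 0, 10 and 0 called genes in the 4 comparisons. Deviations of libraries with the same number had correlations of -0.25 to 0.29, so the numbers were not taken to pair samples. In APP/PS1 against littermates, females 1 to 3 and male 2 correlated best with their own number, at 0.02 to 0.19, while males 1 and 3 did not. In the other comparisons some numbers did and others did not. The numbers of libraries and the spread between them set the standard errors given beside each estimate.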
